A study of Mus musculus with 33 samples.

Results

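Obox1, Obox2, Obox3, Obox5, Obox6 and Obox7 are homeobox genes of the mouse oocyte, and their transcripts were followed in single oocytes at both stages of nuclear maturation and in 3 Nlrp5 genotypes. They were taken as the rows of the gene count table that carry these names, which are 6 of 35321 genes. The table held the number of sequencing reads on each gene in 33 single germinal vesicle oocytes, that is, oocytes arrested before the meiotic divisions. Each library was made from the RNA of 1 oocyte after its DNA had been separated off. The study asked what the loss of Nlrp5, a core gene of the subcortical maternal complex of the oocyte, does to the transcripts of oocytes of like maturity.

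The oocytes came from 3-week-old females of the C57BL6/Babr strain. The ovaries were digested with collagenase and trypsin. The Nlrp5 mutation is a frameshift made by Cas9 in zygotes and bred on to later generations, so every cell of the animal carried it. There were 10 Nlrp5 +/+ oocytes, 16 Nlrp5 +/- oocytes and 7 Nlrp5 -/- oocytes. The Nlrp5 -/- and Nlrp5 +/- females were littermates, whereas most Nlrp5 +/+ females were taken from the colony of origin, so that genotype and colony cannot be told apart. The study placed 17 oocytes in the non-surrounded nucleolus (NSN) stage and 15 in the later surrounded nucleolus (SN) stage from marker genes measured in these same libraries. No Obox gene is among those markers, and the Nlrp5 -/- oocyte 15 was placed in neither stage. The stages were read from the staging bar of a supplementary figure, which gave 9 NSN and 7 SN oocytes of Nlrp5 +/-. The study's text gives 2 to 6 oocytes per stage and genotype, so the Nlrp5 +/- groups here may differ from those it compared. Because the labels name no animal, each combination of genotype and stage counts as a single sample here. No test was therefore made, and an SD over oocytes measures the spread between cells only.

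Homeobox genes encode transcription factors that bind DNA through a homeodomain. The Obox genes form a rodent cluster of such genes, expressed in the oocyte and the early embryo and related to the PRD class of homeobox genes. Obox1, Obox2, Obox5 and Obox7 are known as maternal members, whose transcripts are stored in the oocyte. Obox3 is known mainly from the embryo after fertilization, and Obox6 from the preimplantation embryo, where its loss is tolerated. OBOX proteins are known to help activate the embryonic genome in the 2-cell embryo.

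All 6 genes lie on chromosome 7, with the coordinates of the table given on GRCm38. Obox7 (ENSMUSG00000055942) spans 14659496 to 14665996 on the plus strand. Obox2 (ENSMUSG00000074369) spans 15388721 to 15398545 and Obox1 (ENSMUSG00000054310) 15388948 to 15556866, both on the plus strand, so the annotated span of Obox1 covers most of Obox2. Obox3 (ENSMUSG00000066772) spans 15479825 to 15639902 on the minus strand and overlaps the span of Obox1 in antisense. Obox5 (ENSMUSG00000074366) lies at 15750131 to 15759800 on the plus strand, and Obox6 (ENSMUSG00000041583) at 15833241 to 15839678 on the minus strand. Nlrp5 itself lies on the same chromosome, from 23385889 to 23441922.

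The homeobox stretches of the 6 genes are shown because the counts of such close copies depend on how reads are shared among them. They were read from the GRCm39 genome along the annotated coding sequence (GENCODE vM39) from chr7:15289492-15290096 for Obox1, chr7:15131175-15131779 for Obox2, chr7:15360230-15360858 for Obox3, chr7:15491866-15492484 for Obox5, chr7:14398367-14399213 for Obox7 and chr7:15567855-15568442 for Obox6. Each joins coding bases of 2 exons and is given 5′ to 3′ on the strand of the gene, which is the minus strand for Obox3 and Obox6. Capitals mark bases that differ from Obox1.
Obox1: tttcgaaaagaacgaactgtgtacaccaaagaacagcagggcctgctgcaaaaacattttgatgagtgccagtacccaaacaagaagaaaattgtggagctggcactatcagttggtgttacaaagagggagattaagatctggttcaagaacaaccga
Obox2: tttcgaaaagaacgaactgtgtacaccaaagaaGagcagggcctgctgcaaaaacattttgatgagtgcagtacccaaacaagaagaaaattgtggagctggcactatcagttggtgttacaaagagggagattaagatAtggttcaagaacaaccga
Obox3: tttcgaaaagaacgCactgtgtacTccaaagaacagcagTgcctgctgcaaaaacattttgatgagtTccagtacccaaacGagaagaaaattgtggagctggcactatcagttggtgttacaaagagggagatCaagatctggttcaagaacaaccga
Obox5: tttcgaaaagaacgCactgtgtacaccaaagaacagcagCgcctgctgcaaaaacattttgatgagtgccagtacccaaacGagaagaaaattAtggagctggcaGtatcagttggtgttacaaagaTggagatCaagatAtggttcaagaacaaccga
Obox7: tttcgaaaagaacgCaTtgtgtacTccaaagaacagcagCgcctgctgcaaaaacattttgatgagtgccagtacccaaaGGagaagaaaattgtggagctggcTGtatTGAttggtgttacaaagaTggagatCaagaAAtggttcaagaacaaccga
Obox6: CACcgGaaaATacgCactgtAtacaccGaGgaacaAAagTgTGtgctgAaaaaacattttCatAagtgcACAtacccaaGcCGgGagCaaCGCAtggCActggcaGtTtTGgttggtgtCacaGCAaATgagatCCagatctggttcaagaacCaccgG
Against the 159 bases of Obox1, Obox3 had 6 substitutions, Obox5 had 8, Obox7 had 15 and Obox6 had 46. Obox2 had 2 substitutions and lacked 1 base, at coding base 348 of Obox1, where Obox1 reads a pair of c. In the annotated reading frame of Obox2 the core of the DNA-recognition helix was absent, whereas the frames of the other 5 genes held it.

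Over their aligned coding bases Obox1 and Obox2 were 98.5% identical, with 446 of 453 bases the same. Obox1, Obox2, Obox3, Obox5 and Obox7 were 92.9% to 98.5% identical with each other, and Obox6 was 76.6% to 80.3% identical with the other 5. Windows of 150 bases along the annotated transcripts were taken to stand for reads. Of these, 700 of the 1841 of Obox1 and 700 of the 1656 of Obox2 (42.3%) occurred without a mismatch in the other gene. Obox3 shared 4.81% of its windows with the pseudogene Obox3-ps3, and Obox5, Obox6 and Obox7 shared 0 with another Obox transcript. The exons of Obox1 and Obox2 also overlapped by 286 bases. How reads that match both genes were counted is not given in the sources used here, so the split of counts between Obox1 and Obox2 is uncertain, and the sum over the 6 genes is given beside it. The kit does not mark the strand, so reads of the overlapping Obox1 and Obox3 spans cannot be told apart by strand.

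The sequence upstream of the annotated start is shown for the Obox genes that share it, since 3 of them were abundant and Obox3 was nearly undetected. The 80 bases lie at chr7:15547159-15547238 for Obox1, chr7:15750260-15750339 for Obox5 and chr7:15639807-15639886 on the minus strand for Obox3 (RefSeq, GRCm38.p6). Capitals mark differences from Obox1.
Obox1: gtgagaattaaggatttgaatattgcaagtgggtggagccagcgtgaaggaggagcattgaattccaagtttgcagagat
Obox5: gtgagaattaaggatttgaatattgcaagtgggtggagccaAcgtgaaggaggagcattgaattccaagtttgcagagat
Obox3: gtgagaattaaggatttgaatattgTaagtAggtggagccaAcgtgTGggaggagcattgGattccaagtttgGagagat
The same 80 bases of Obox7, at chr7:14659624-14659703, were identical to those of Obox5. Obox5 and Obox7 thus had 1 difference from Obox1 and Obox3 had 7. The first 25 bases of the stretch were searched as the longest run shared by these 4 genes, on both strands, in 32851 RefSeq windows from 250 bases before to 50 bases after a start site, and were found in 5, all of them of Obox genes (Obox1, Obox2, Obox3, Obox5 and Obox7). The Obox2 copy reached across its annotated start, and Obox6 had no window in the RefSeq table used. The TATA box letters TATATAA were present in 4 of the 5 Obox windows, where 3.24% of all windows held them. The 5 windows were 88.1% to 100% identical with each other over their aligned bases, so they are not independent cases. The letters stood 19 to 31 bases before the start in Obox1, Obox3 and Obox5 and 5 before it in Obox7. The Otx-type homeodomain motif TAATCC was found in the Obox3 window only, with 7.06% of all windows holding it, and the Nobox element TAATTG in 0 of 5, with 2628 of all 32851 windows holding it.

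Obox transcripts took 0.180% to 0.435% of all counts on genes in an oocyte, with a median of 0.269%. To compare levels between genes, counts were scaled to reads per kilobase of merged exon per 1000000 counts (RPKM). On this scale Obox2 stood at 744 ± 205 (SD over 33 oocytes, range 472 to 1231). Obox5 stood at 338 ± 76.4 (196 to 499) and Obox1 at 299.96 ± 69.4 (201 to 495). As counted by the authors, Obox2 was above every other Obox gene in 33 of 33 oocytes, but the order of Obox1 and Obox2 rests on how reads that match both were assigned. Obox5 was above Obox1 in 28 of 33 oocytes, and their ranges across oocytes overlapped. Obox7 stood at 74.5 ± 19.3 (45.2 to 128) and was below Obox1 in 33 of 33 oocytes. Among 26855 genes with a count and an exon length, Obox2 ranked 38, Obox5 85, Obox1 102 and Obox7 478 by mean RPKM.

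**Figure D1:**
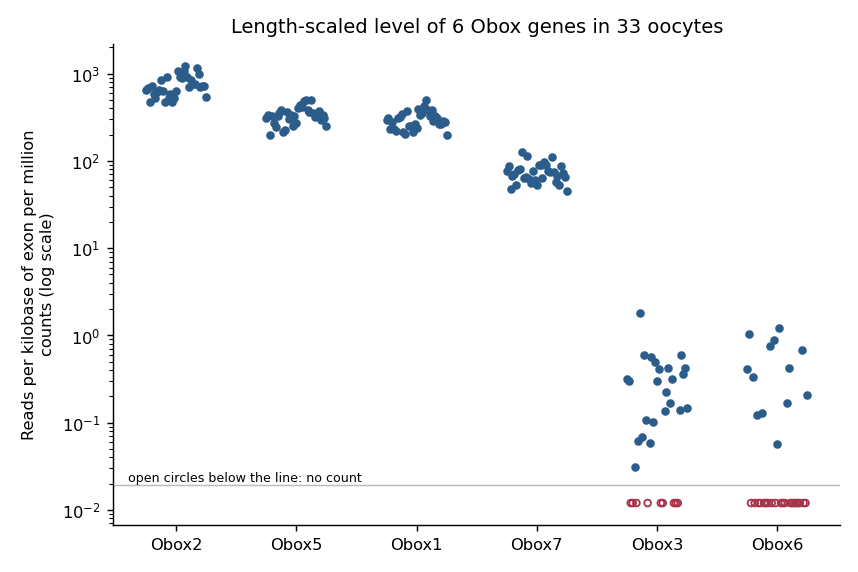
Each point is 1 of 33 oocytes, plotted in RPKM on a log axis, with open circles below the line for oocytes without a count. Obox2, Obox5, Obox1 and Obox7 lie between 45.2 and 1231, and Obox3 and Obox6 reach at most 1.79 and 1.21.

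Obox3 and Obox6, the members known from the embryo, were nearly undetected. Obox3 had 191 counts over the 33 libraries (95% Poisson interval 165 to 220, counting error only). They were found in 24 oocytes with at most 35 counts each, and oocyte 54 held the 35. Obox6 had 99 counts (80.5 to 121), found in 13 oocytes with at most 28 counts each, and oocyte 69 held the 28. Their levels, 0.247 ± 0.340 and 0.194 ± 0.338 RPKM (SD over 33 oocytes), overlapped. Obox3 was above Obox6 in 16 oocytes and below it in 10. By group, Obox3 had 17 counts in the 4 NSN and 49 in the 6 SN oocytes of Nlrp5 +/+, 51 in 9 and 24 in 7 oocytes of Nlrp5 +/-, and 27 in 4 and 19 in 2 oocytes of Nlrp5 -/-. Obox6 had 24 and 41 counts in Nlrp5 +/+, 10 and 6 in Nlrp5 +/-, and 15 and 0 in Nlrp5 -/-, where the upper limit of the 0 was 3.69 counts over the 2 libraries. At this depth, 4223595 to 15573360 counts on genes per oocyte (median 7724335), no stage or genotype difference of these genes was read from such counts. Of the other table entries named Obox, Obox8 had 11 counts, all in oocyte 85, and Obox4-ps35 had 0. A further 47 genes and pseudogenes named Obox in RefSeq matched no table entry by symbol or older name. Transcripts of these could therefore not be read from the table.

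From here on, levels are normalized counts, that is, counts divided by a size factor per oocyte, and are compared between oocytes only. A difference is the log2 of the mean normalized count plus 1 in the first group minus that in the second. A gene was taken as measured in a comparison where its mean was 10 or more, and Obox1, Obox2, Obox5 and Obox7 passed this in all 9 comparisons, whereas Obox3 and Obox6 did not. A normalized count cannot tell a change in the number of transcripts from a change in the rest of the RNA of the oocyte.

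In Nlrp5 +/+ oocytes, Obox transcripts were more abundant at the SN stage. The summed normalized count of the 6 genes was 17962 ± 3202 in 4 NSN oocytes and 29183 ± 3607 in 6 SN oocytes (SD over oocytes), a log2 difference of 0.70 or 1.62-fold. All 6 SN oocytes, 26136 to 34353, were above all 4 NSN oocytes, 13436 to 20987. Obox1, Obox2 and Obox5 did not overlap between the stages and were higher in SN, which is 3 of the 4 Obox genes measured, where 3.64% of 13608 genes had all SN oocytes above all NSN oocytes and 6.17% below. The median log2 difference was 0.65 for the 4 genes and 0.02 for all genes. No Obox gene reached a 2-fold difference, which 3.73% of genes exceeded upward and 9.19% downward.

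Obox2, the member with the most counts as deposited, had 5830, 7851, 8350 and 8783 normalized counts in the 4 NSN oocytes of Nlrp5 +/+. In the 6 SN oocytes the lowest was 11631, the median 12970 and the highest 15989. The lowest SN oocyte was thus 1.32-fold above the highest NSN oocyte, and the means differed by 0.79 (log2; 1.73-fold). A difference at least as large upward was found for 5.90% of genes. In Nlrp5 +/- the 9 NSN oocytes ran from 5724 through a median of 7888 to 11677, and the 7 SN oocytes from 9247 through 9638 to 15518. Here the stages overlapped, because 2 NSN oocytes were above the lowest SN oocyte, and the means differed by 0.44. In Nlrp5 -/- the 4 NSN oocytes had 5553, 6764, 7477 and 7788 and the 2 SN oocytes 9263 and 9283, with no overlap and a difference of 0.43. The unstaged oocyte 15 had 6943, within the range of the NSN oocytes.

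Obox5, another maternal member, followed the same order of stages at a lower count. Its NSN oocytes had 3353, 5335, 5347 and 5987 in Nlrp5 +/+, and its SN oocytes ran from 7006 through a median of 7685 to 9155. The stages did not overlap and differed by 0.68 (log2). In Nlrp5 +/- the NSN oocytes ran from 3785 through 5322 to 6712 and the SN oocytes from 5281 through 6396 to 9034, overlapping, with a difference of 0.33. In Nlrp5 -/- the NSN oocytes had 4089, 4737, 5766 and 6065 and the SN oocytes 5511 and 5983, which lay inside the NSN range. The means differed by 0.15, and by 0.06 to 0.24 with 1 oocyte left out. Oocyte 15 had 4496.

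Obox1 had 3684, 4207, 4658 and 5113 in the NSN oocytes of Nlrp5 +/+, and its SN oocytes ran from 5628 through a median of 6610 to 8312. Again the stages did not overlap, and the difference was 0.62 (log2). In Nlrp5 +/- it ran from 3170 through 4130 to 6187 in NSN and from 4257 through 5365 to 6479 in SN, with overlap and a difference of 0.22. In Nlrp5 -/- it had 3250, 3835, 4221 and 4324 in NSN and 4567 and 4678 in SN, with no overlap and a difference of 0.24. Oocyte 15 had 3342, near the lowest of the NSN oocytes.

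Obox7, the least abundant of the 4, overlapped between stages in all 3 genotypes. Its NSN oocytes had 570, 759, 902 and 1085 in Nlrp5 +/+ and its SN oocytes ran from 822 through a median of 1128 to 1285, a difference of 0.38 (log2). In Nlrp5 +/- it ran from 614 through 857 to 1564 in NSN and from 642 through 912 to 1402 in SN, a difference of -0.04 whose sign changed with the setting (-0.16 to 0.09). In Nlrp5 -/- it had 643, 690, 743 and 887 in NSN and 812 and 896 in SN, a difference of 0.20. Oocyte 15 had 567, the lowest value of the 33 oocytes.

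**Figure D2:**
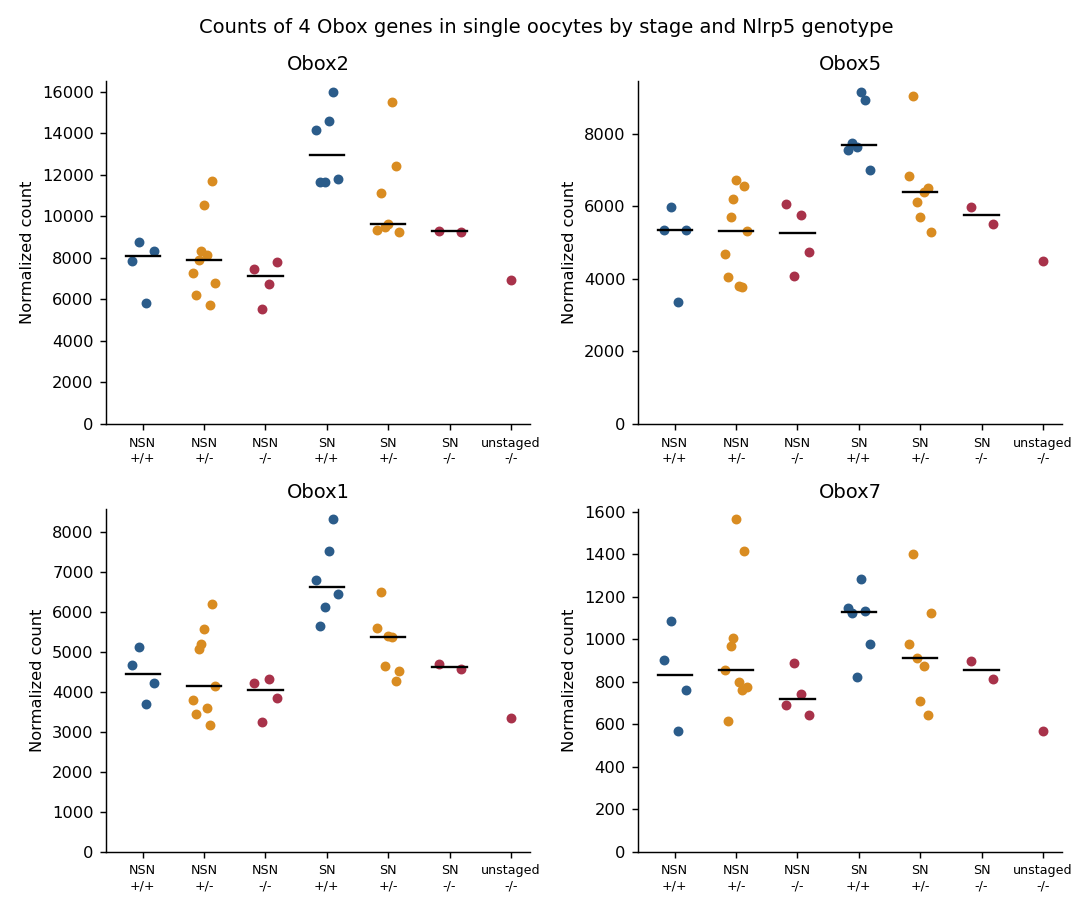
Each point is the normalized count of 1 oocyte, in 1 panel per gene, with oocytes grouped by stage and Nlrp5 genotype and a bar at the group median. In Nlrp5 +/+ the SN oocytes of Obox2 (11631 to 15989), Obox5 (7006 to 9155) and Obox1 (5628 to 8312) lie above all NSN oocytes, whereas the stages of Obox7 overlap.

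Taken over the 6 genes, the stage difference was 0.70 (log2) in Nlrp5 +/+, 0.34 in Nlrp5 +/- and 0.29 in Nlrp5 -/-. Whether the genotypes differ in it was not tested. In Nlrp5 +/- the sums were 18702 ± 4301 in 9 NSN and 23651 ± 3259 in 7 SN oocytes. The stages overlapped for all 4 genes, where 0.522% of genes had all SN oocytes above all NSN oocytes and 0.823% below, and no Obox gene reached 2-fold (2.08% of genes higher, 7.07% lower). In Nlrp5 -/- the sums were 13791, 17011, 17609 and 18467 in NSN and 20162 and 20848 in SN. With 4 and 2 oocytes, 9.8% of genes had all SN above all NSN oocytes and 10.4% below, and Obox1 and Obox2 were 2 of the 4 Obox genes to do so. No Obox gene reached 2-fold there, where 3.81% of genes were higher and 10.5% lower.

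The libraries were indexed in 10 sets, each of 1 genotype, and 6 sets held both stages. Within these sets the summed Obox count was higher in SN in 5 of 6, with log2 differences from -0.10 to 0.77. Obox2 was higher in SN in 6 of 6 (0.05 to 1.05), and Obox1, Obox5 and Obox7 in 5 of 6 each. The exception for the sum was the Nlrp5 +/- set with oocytes 53, 54 and 56 in NSN and oocyte 55 in SN.

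At the NSN stage the Nlrp5 genotypes overlapped for all 4 Obox genes measured, and at the SN stage Obox levels were lower in Nlrp5 -/- than in Nlrp5 +/+. The summed SN count was 20505 ± 485 in 2 Nlrp5 -/- oocytes and 29183 ± 3607 in 6 Nlrp5 +/+ oocytes, a log2 difference of -0.51 or 0.703-fold. Both Nlrp5 -/- oocytes, 20162 and 20848, were below the lowest Nlrp5 +/+ oocyte, 26136. Obox1 differed by -0.56, Obox2 by -0.52 and Obox5 by -0.48, each without overlap, and Obox7 by -0.34 with overlap. These 3 of 4 genes stood where 7.63% of genes had both Nlrp5 -/- oocytes below all Nlrp5 +/+ oocytes and 7.57% above. The median was -0.50 for the 4 genes and 0.01 for all genes. For 17.3% of genes the difference was at least as low as that of the sum, and none of the 4 Obox genes reached 2-fold, which 5.35% of genes exceeded downward and 4.9% upward.

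At the NSN stage the sum was 16719 ± 2041 in 4 Nlrp5 -/- oocytes and 17962 ± 3202 in 4 Nlrp5 +/+ oocytes, a log2 difference of -0.10. Obox1 and Obox2 differed by -0.18 and -0.16, Obox5 by 0.05 and Obox7 by -0.16. Leaving out the Nlrp5 +/+ oocyte 79 took Obox5 to -0.11, with a change of sign, and leaving out oocyte 78 took Obox7 to -0.0053. With 1 oocyte left out, Obox1 ran from -0.25 to -0.10 and Obox2 from -0.27 to -0.07. Between these genotypes 0 of the 4 genes were free of overlap, where 3.96% of genes were above and 3.14% below without overlap. No gene of the 4 reached 2-fold (4.93% of genes higher, 3.21% lower).

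In Nlrp5 +/- oocytes the sum at the SN stage, 23651 ± 3259 in 7 oocytes, lay between those of the other genotypes. Against the same Nlrp5 +/+ oocytes it differed by -0.30 (log2), with overlap, and 13.2% of genes were at least as low. Obox1 differed by -0.39, Obox2 by -0.28, Obox5 by -0.29 and Obox7 by -0.19, all with overlap, where 0.0226% of genes were above and 0.0602% below without overlap. At the NSN stage the sum differed by 0.06, Obox7 by 0.23 and the other 3 genes by 0.01 to 0.07, again all with overlap (0.168% of genes above, 0.27% below). No Obox gene reached 2-fold at either stage, where 1.65% of genes were higher and 1.28% lower in NSN, and 1.11% higher and 0.828% lower in SN. Since both mutant groups were set against the same Nlrp5 +/+ oocytes, their differences are not independent of each other.

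Against Nlrp5 +/- littermates, which do not share these controls, the Nlrp5 -/- sums differed by -0.16 in NSN and -0.21 in SN (log2). All 4 Obox genes overlapped at both stages. In NSN 0.504% of genes were above and 0.684% below without overlap, and in SN 5.53% and 5.6%. The SN differences were -0.16 for Obox1, -0.24 for Obox2, -0.19 for Obox5 and -0.15 for Obox7. Leaving out 1 oocyte at a time gave -0.21 to -0.10 for Obox1 and -0.28 to -0.14 for Obox2. For Obox5 it gave -0.25 to -0.095 and for Obox7 -0.23 to -0.03. None of the 4 genes reached 2-fold (3.65% of genes higher and 3.11% lower in NSN, 4.2% and 4.88% in SN).

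**Figure D3:**
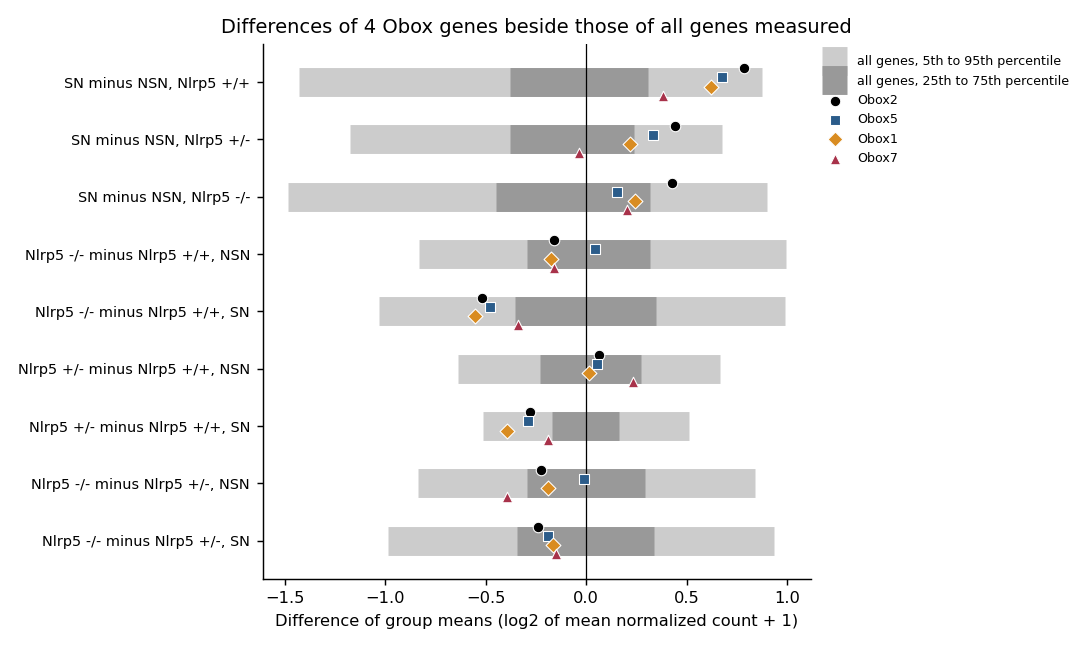
Each symbol is the log2 difference of group means of 1 Obox gene, in 1 line per comparison, over bars from the 5th to the 95th (light) and the 25th to the 75th percentile (dark) of all genes measured. The 4 genes stand furthest right for SN minus NSN in Nlrp5 +/+ (0.38 to 0.79) and Obox1, Obox2 and Obox5 furthest left for Nlrp5 -/- minus Nlrp5 +/+ in SN (-0.56 to -0.48).

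The SN groups also differed in their mean staging score, with overlap. The staging score used here is the mean log2 level of 105 NSN markers minus that of 59 SN markers, so that a higher score is nearer to NSN. It ran from -5.27 to -4.07 in the Nlrp5 +/+ SN oocytes and was -4.21 and -3.85 in the 2 Nlrp5 -/- SN oocytes, 7 and 31. The Nlrp5 +/- SN oocytes 37, 39, 40 and 55, with scores of -3.99 to -3.61, had summed Obox counts of 20191 to 22753, where those of oocytes 31 and 7 were 20162 and 20848. The Nlrp5 +/+ oocyte of the highest score, oocyte 72 at -4.07, was the nearest in score to oocyte 7 at -4.21, and had 26136. Across the 15 SN oocytes the log2 sum and the score had a Pearson r of -0.87, and across the 17 NSN oocytes of -0.42, as a description of cells that share library preparation and size factors. Among SN oocytes r was -0.88 for Obox2, -0.70 for Obox5, -0.68 for Obox1 and -0.37 for Obox7. The part of this score in the genotype difference was not tested.

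**Figure D4:**
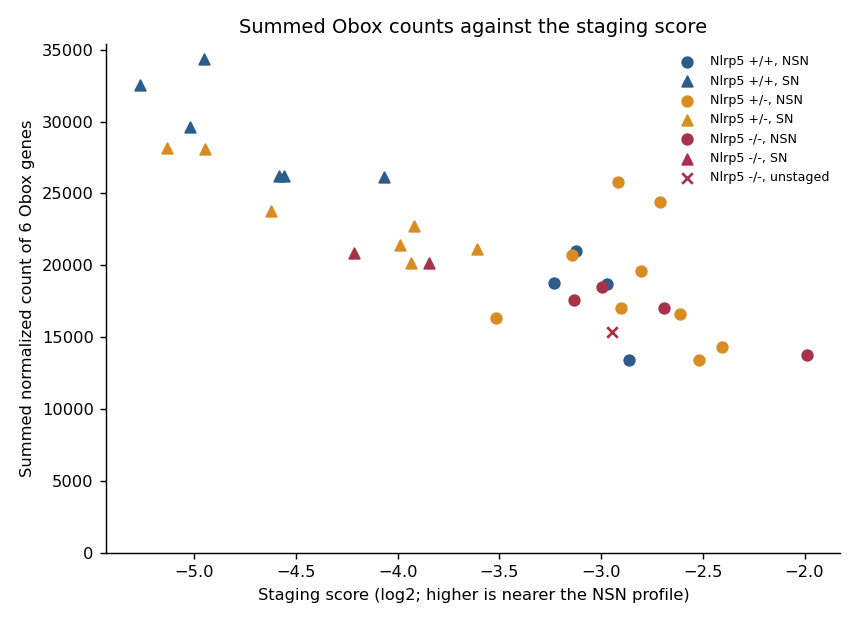
Each symbol is 1 oocyte, with the staging score (log2, higher is nearer to NSN) on the x axis and the summed normalized count of the 6 Obox genes on the y axis, coloured by genotype and shaped by stage. The 2 Nlrp5 -/- SN oocytes have sums of 20162 and 20848, below the 6 Nlrp5 +/+ SN oocytes (26136 to 34353), whose scores run from -5.27 to -4.07.

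Other features of the libraries moved with genotype and stage too. Nlrp5 itself had 1362 to 2556 normalized counts in Nlrp5 -/- oocytes, below the 10114 to 29131 of Nlrp5 +/+ and the 5062 to 13472 of Nlrp5 +/-. Oocyte markers such as Gdf9 and Zp3 summed to 21854 to 33768 counts per 1000000 counts on genes (CPM) in the staged oocytes. Of the 12 oocyte markers, 1 was past 2-fold between stages in each genotype, Ddx4, a germ cell helicase gene, which was lower in SN (-1.71 in Nlrp5 +/+, -1.30 in Nlrp5 +/- and -1.56 in Nlrp5 -/-).

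Markers of other ovarian cells also differed between the stages, but not in the same direction in every list and genotype. In Nlrp5 +/+ the 16 granulosa cell markers summed to 155 to 271 CPM in NSN, where Inhbb, Amh, Foxl2 and Fst were at 0, and to 260 to 338 CPM in SN, with 2 of 5 measured past 2-fold higher in SN and 0 lower. These were Cyp19a1, the aromatase gene (539 normalized counts in SN and 238 in NSN, no overlap), and Inha, an inhibin subunit gene (14.96 and 5.18, with overlap). The 12 stroma, vessel and blood cell markers summed to 46.2 to 75.5 CPM in NSN and 73.0 to 87.6 CPM in SN, with 2 of 5 higher, and the 9 theca and interstitial cell markers to 28.2 to 47.2 and 31.6 to 51.0 CPM, with 0 of 5 higher and 1 lower. In Nlrp5 +/- the granulosa list summed to 188 to 341 CPM in NSN and 305 to 385 CPM in SN, with 2 of 6 higher and 1 lower. There 2 of 6 stroma markers were higher, and 3 of 5 theca markers were lower. In Nlrp5 -/-, where the Obox genes were again higher in SN, 0 granulosa markers were higher and 5 of 11 lower, 4 of 5 theca markers were lower, and 0 of 7 stroma markers passed. The shares of all genes past 2-fold higher and lower were 3.73% and 9.19% in Nlrp5 +/+, 2.08% and 7.07% in Nlrp5 +/-, and 3.81% and 10.5% in Nlrp5 -/-.

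The same lists moved with genotype. Granulosa markers summed to 265 to 572 CPM in Nlrp5 -/- NSN oocytes and to 345 to 401 CPM in Nlrp5 -/- SN oocytes, where Nr0b1 and Wt1 were at 0. Against Nlrp5 +/+, 6 of 10 granulosa markers in NSN and 5 of 9 in SN were past 2-fold higher in Nlrp5 -/-, where 4.93% and 4.9% of all genes were. Inha had means of 377 normalized counts (range 23.1 to 906) in Nlrp5 -/- and 5.18 in Nlrp5 +/+ in NSN. In SN its means were 267 (57.9 to 476) and 14.96, without overlap at either stage. The stroma list summed to 86.2 to 121 CPM in Nlrp5 -/- NSN oocytes, with 6 of 7 higher than in Nlrp5 +/+, and to 77.3 to 98.2 CPM in SN, with 3 of 7 higher and 1 lower (5.35% of all genes were lower). The theca list summed to 36.3 to 263 CPM in NSN, with 2 of 5 higher, and to 44.2 to 68.4 CPM in SN, with 1 of 3 higher. Its steroid synthesis gene Hsd3b1 had means of 440 normalized counts (range 53.7 to 1373) in Nlrp5 -/- and 11.5 in Nlrp5 +/+ in NSN. In SN its means were 89.8 (51.4 to 128) and 8.56, without overlap at either stage.

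Between Nlrp5 +/- and Nlrp5 +/+, 2 of 5 granulosa, 3 of 5 theca and 0 of 3 stroma markers were past 2-fold higher in NSN, and 1 of 6, 2 of 5 and 4 of 7 in SN, with 0 lower, where 1.65% of all genes were higher in NSN and 1.11% in SN. The theca list reached 422 CPM in the Nlrp5 +/- NSN oocyte 61, where the group median was 59.9 CPM. Hsd3b1 in Nlrp5 +/- had means of 231 normalized counts (range 16.9 to 1177) in NSN and 64.7 (13.3 to 171) in SN. Both ranges lay outside those of Nlrp5 +/+. Between Nlrp5 -/- and Nlrp5 +/-, 6 of 12 granulosa markers in NSN and 5 of 10 in SN were higher, 2 of 7 stroma markers were higher in NSN and 1 of 7 lower in SN, and 1 theca marker was lower at each stage. Of all genes 3.65% were higher and 3.11% lower in NSN, and 4.2% and 4.88% in SN. The part of these markers in the Obox differences was not tested. Oocyte 15 held 1296 CPM of the granulosa markers and 17393 CPM of the oocyte markers.

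The Obox genes moved together from oocyte to oocyte. Over 33 oocytes the Pearson r of log2 normalized counts was 0.92 for Obox1 and Obox5, 0.86 for Obox1 and Obox2 and 0.84 for Obox2 and Obox5. With the mean of each genotype and stage taken off, in 32 oocytes, these were 0.86, 0.70 and 0.67. Obox7 had 0.57 to 0.72 with the other 3, and 0.49 to 0.70 with the group means taken off. The oocytes share stage, size factors and, for Obox1 and Obox2, sequence, so these values are descriptions.

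The ratio of Obox1 to Obox2 set 2 oocytes apart. It was 0.346 in oocyte 46 and 0.343 in oocyte 47, both Nlrp5 +/- at the SN stage, and 0.441 to 0.641 in the other 31 oocytes (median 0.530). Obox2 made up 55.1% and 52.1% of the Obox counts in these 2 oocytes. Their index set also held the NSN oocytes 45 and 48, with ratios of 0.522 and 0.553. Both oocytes had high Obox2 (15518 and 12412 normalized counts). Without them, an alternative chosen after the data had been seen, the stage difference of the sum in Nlrp5 +/- was 0.28 and the SN difference of Nlrp5 +/- from Nlrp5 +/+ was -0.36 (log2). For Obox2 alone these 2 differences were 0.44 and -0.28 with both oocytes and 0.28 and -0.45 without them.

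**Figure D5:**
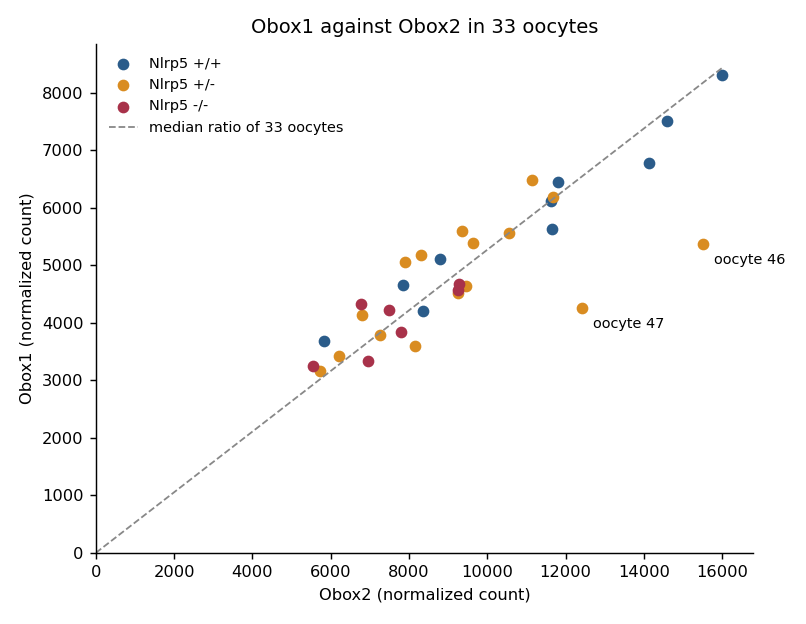
Each point is 1 of 33 oocytes, with the normalized count of Obox2 on the x axis and of Obox1 on the y axis, coloured by genotype, and the dashed line is the median ratio of the 33 oocytes (0.527). Oocytes 46 and 47 lie below the line at ratios of 0.346 and 0.343, and the others lie between 0.441 and 0.641.

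Other homeobox genes of the oocyte went both ways between the stages. Of 23 PRD-class and oocyte homeobox genes listed, 11 were measured in the Nlrp5 +/+ stage comparison, with a median log2 difference of 0.15, beside 0.65 for the Obox genes. Of these, 2 were past 2-fold higher in SN (Otx1 and Alx1) and 2 lower (Noto and Gsc), where 3.73% of all genes were higher and 9.19% lower. Otx1, Alx1 and Gsc overlapped between the stages, at means of 80.05, 13.5 and 30.0 normalized counts over all oocytes. Noto, a notochord homeobox gene, had 2234 normalized counts in NSN and 946 in SN (-1.24, no overlap). Nobox, a regulator of oocyte genes in the growing follicle, differed by -0.39 and Meis2, a TALE homeobox gene, by 0.63. In Nlrp5 +/- 0 of 11 were past 2-fold higher and 2 lower (Noto, -1.06, and Gsc), and in Nlrp5 -/- 1 was higher (Alx1) and 1 lower (Gsc). Between Nlrp5 -/- and Nlrp5 +/+, 1 of 10 was higher in NSN (Otx1, 128 against 28.5, with overlap) and 0 of 11 passed in SN. At the SN stage, where the Obox genes were lower, Nobox was higher in Nlrp5 -/- by 0.36 without overlap and Meis2 differed by -0.53. Between Nlrp5 +/- and Nlrp5 +/+, 1 of 10 was past 2-fold higher in NSN (Otx1 again) and 0 of 11 in SN, and between Nlrp5 -/- and Nlrp5 +/- 0 passed at either stage. Otx1, Alx1 and Gsc were named after their values were seen, as were Dppa4, Eif1a, Zfp809, Ddit4l and Zscan4d.

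Genome activation factors stored in the oocyte, the group in which OBOX proteins are known to act, were a list of 26 genes, 22 of them measured. In Nlrp5 +/+, 0 were past 2-fold higher in SN and 1 lower, the histone methyltransferase gene Setd1b (-1.02), with a median of -0.03. In Nlrp5 +/- 0 of 22 and in Nlrp5 -/- 0 of 21 were past 2-fold between stages. The maternal factor genes Dppa3 and Zar1 differed by 0.53 and 0.13 between stages in Nlrp5 +/+. Between Nlrp5 -/- and Nlrp5 +/+, 0 of 22 were higher and 1 lower at each stage, in both cases Dppa4, a chromatin factor gene of the early embryo. Dppa4 had a mean of 1.83 in Nlrp5 -/- and 88.3 in Nlrp5 +/+ at the NSN stage, and of 3.37 and 137 at the SN stage, without overlap at either. Dppa3 differed by -0.43 in NSN and -0.41 in SN, and Zar1 by -0.10 and 0.10, all with overlap. Between Nlrp5 -/- and Nlrp5 +/-, 1 of 22 was lower at each stage, again Dppa4, and between Nlrp5 +/- and Nlrp5 +/+ 0 of 22 passed at either stage.

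Genes known from the 2-cell embryo, some of them known to depend on OBOX proteins there, were a list of 26 names, and 8 were measured. The list is not limited to genes silent in the oocyte. Arg2 and Sp110 had means of 5126 and 3991 normalized counts over all oocytes. Between stages 0 were past 2-fold higher in any genotype. In Nlrp5 +/+ 1 of 8 was lower (Eif1a), in Nlrp5 +/- 3 (Eif1a, Tcstv3 and Zfp809) and in Nlrp5 -/- 3 (Eif1a, Ddit4l and Zscan4d), where 9.19%, 7.07% and 10.5% of all genes were. Tcstv3, a gene of the 2-cell embryo, had 470 in NSN and 203 in SN in Nlrp5 +/- (-1.21), with overlap. Sp110, a nuclear body protein gene, differed by -0.11 between stages in Nlrp5 +/+. Between Nlrp5 -/- and Nlrp5 +/+, 1 was higher in NSN (Ddit4l; 4.93% of all genes) and 1 lower in SN (Zfp809; 5.35%). Between Nlrp5 +/- and Nlrp5 +/+, 0 passed in NSN and 1 in each direction in SN (Ddit4l higher and Zfp809 lower, beside 1.11% and 0.828% of all genes), and between Nlrp5 -/- and Nlrp5 +/- 0 passed at either stage.

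The genes whose pattern over the 33 oocytes was most like the Obox genes were taken by Pearson r of log2 normalized counts among 8432 candidates with a mean of at least 100. For the Obox sum these were Lpcat2 (0.86), Rnaset2a (0.85) and Orc6 (0.85), and with group means taken off Oser1 (0.78), Rnaset2a (0.77) and Gm49673 (0.76). For Obox2 they were Orc6 (0.88), Slco1a5 (0.85) and Rnaset2a (0.85), and Orc6 (0.80) also led with group means taken off. Obox1 was most like Lpcat2 (0.85), Atp6v1d (0.81) and Ube2t (0.81), and Obox5 was most like Lpcat2 (0.86), Ccdc62 (0.85) and Smu1 (0.83). With group means taken off, Mphosph6 (0.80) led for Obox1 and Ccdc62 (0.77) for Obox5. Obox7 was most like Mitd1 (0.77), Mrpl47 (0.69) and Serpinb1c (0.68), and with group means taken off like Sarnp (0.74), Fbp1 (0.71) and Hmgb2 (0.69). None of these genes is a staging marker of the study, and the pairs among Obox1, Obox2 and Obox5 had values of the same size (0.84 to 0.92).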

How the data were processed

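RNA of 33 single oocytes was measured. The authors used Trim Galore for trimming and HISAT2 for alignment, left out libraries of low read number and deposited raw counts of reads per gene in each oocyte. The study's methods name GRCm39, but the gene coordinates and column names of the table are those of GRCm38, and they are printed as they stand. The counting of reads with several matches is not given in the sources used here. Of 35373 entries, 52 repeated ones were left out. The tables of genes that the authors called, which hold fold changes and p-values, and a table of 1 read total per library were not used.

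Genotype was taken from the labels and stage from the study's staging bar. The members and lists, and the rules for them, were chosen with earlier results of these data known. Counts were divided by median-of-ratios size factors over 11845 genes with a count in all oocytes, and group means of normalized counts were compared as log2(mean + 1) among genes with a mean of at least 10. No test was made, since no label names an animal. A difference counted as past the threshold at 2-fold. Named genes were the 6 Obox genes, Nlrp5, list members past 2-fold with a mean of at least 100 or otherwise the 2 with the highest mean, and the 3 genes of most like pattern. Not every gene that this rule names is reported here. RPKM used merged exons of GENCODE vM39 for 26855 of 27209 genes with a count. Staging and marker scores used log2 levels and CPM. Homeobox stretches came from GRCm39 and upstream windows from RefSeq (GRCm38.p6), matched by symbol for 5 of 6 genes, and no coordinate was converted.

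Alternatives were CPM scaling, TMM factors, size factors within each comparison, medians, mean log2 values and pooled sums. Others were means of index sets, a pseudocount of 5 and other filters. Further ones counted oocyte 15 as NSN, oocyte 61 as SN or oocyte 55 as NSN, or took both stages together. Each oocyte was also left out, as were oocytes 7, 13 and 14, chosen for their granulosa markers in an earlier analysis. Leaving out oocytes 46 and 47 was added after the data had been seen. The depth was 4223595 to 15573360 counts on genes. Poisson intervals at 95% cover counting error only, and reads after amplification are not independent molecules. The calculation was checked on simulated data. Calculations ran in R 4.3.3 with edgeR 4.0.16 (for TMM factors) and in Python 3.11.15 with biopython 1.88, matplotlib 3.10.9, scipy 1.17.1, pandas 2.3.3 and numpy 2.4.6.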

Additional observations from a re-analysis of the deposited data

Results flagged for a closer look

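Obox5 in the Nlrp5 +/- SN oocyte 38 stood far from the other 6 oocytes of its group, with 9034 normalized counts against 6826 in the nearest, a gap of 0.588 of the whole range. It was 1 of 30 groups of 4 to 9 oocytes examined for a single high or low oocyte, of which chance would mark about 1 in 20.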

How the results depend on the processing

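Of 975 values recomputed under another setting, 971 moved by less than 1 SD over oocytes, and the sign of the difference changed in 48, which were 43 of single genes and 5 of the Obox sum. The log2 difference of the Obox sum between Nlrp5 -/- and Nlrp5 +/+ NSN oocytes was -0.10 and became -0.49 with both stages together and oocyte 15 included, a setting in which the genotypes hold unequal shares of SN oocytes. That of Nlrp5 +/- minus Nlrp5 +/+ in NSN, 0.06, was -0.13 with medians over oocytes and -0.24 with both stages together, and that of Nlrp5 -/- minus Nlrp5 +/- in NSN, -0.16, was 0.02 with medians. Leaving out 1 oocyte at a time gave 0.58 to 0.78 for SN minus NSN in Nlrp5 +/+, 0.29 to 0.41 in Nlrp5 +/- and 0.21 to 0.35 in Nlrp5 -/-. Nlrp5 -/- minus Nlrp5 +/+ then ran from -0.22 to -0.02 in NSN and from -0.54 to -0.46 in SN, and Nlrp5 +/- minus Nlrp5 +/+ from -0.06 to 0.14 in NSN and from -0.35 to -0.25 in SN. Nlrp5 -/- minus Nlrp5 +/- ran from -0.21 to -0.08 in NSN and from -0.24 to -0.16 in SN. With 2 Nlrp5 -/- SN oocytes, leaving out either left 1. The NSN oocyte 61 had a staging score of -3.51, near the -3.61 of the SN oocyte 39. Counting oocyte 61 as SN took the stage difference of the sum in Nlrp5 +/- from 0.34 to 0.26. Counting oocyte 55 as NSN instead took it to 0.36. Depth limits Obox3 and Obox6 only, and the split between Obox1 and Obox2 depends on reads that match both. No paired analysis was possible because the replicate numbers were given in accession order and pair no oocytes. The stage comparison within index sets, which needs no such numbers, is given with the stage results.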
